A study of Mus musculus with 15 samples.

Results

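The vacuolar proton pump (V-ATPase) exists in versions that differ in which gene supplies a given subunit, and 5 pairs of such genes are described here. Each pair holds 1 gene known mainly from the kidney's acid-secreting cells (kidney-type: Atp6v1b1, Atp6v0a4, Atp6v0d2, Atp6v1g3 and Atp6v1c2) and 1 paralogue found in most tissues (widespread: Atp6v1b2, Atp6v0a1, Atp6v0d1, Atp6v1g1 and Atp6v1c1). The members were chosen by symbol, and all 10 were found by Ensembl identifier among the 54752 genes of the count table. RNA came from convoluted tubules isolated from mouse kidneys that lacked claudin-10a (Cldn10a KO), a tight junction protein made from Cldn10, or that carried it (WT). The 15 libraries form 4 groups, which are distal KO (n = 4), distal WT (n = 4), proximal KO (n = 3) and proximal WT (n = 4). A proximal sample pooled 10 tubules of a kidney and a distal sample about 20, and the labels used here give no strain, age or driver of the deletion. They do not say outright that each library came from a separate animal, so each p-value reflects only how far these libraries scatter, which may be technical.

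The V-ATPase hydrolyses ATP in its peripheral V1 sector and moves protons through its membrane V0 sector. It acidifies lysosomes and endosomes in most cells. In the kidney it also sits in the apical membrane of proximal tubule cells and in the plasma membrane of intercalated cells, which secrete acid or bicarbonate in the late distal nephron and collecting duct. Subunit B belongs to the nucleotide-binding ring of V1, and subunits C and G to the stalks that hold the sectors together. Subunit a carries the proton half-channels, and subunit d links the rotor to the proton-binding ring. In humans, mutations of the genes for subunits B1 and a4 cause distal renal tubular acidosis.

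The libraries held 28729339 to 51764746 counts, of which nuclear protein-coding genes took 8.02 to 19.7% and mitochondrial ribosomal RNA 57.8 to 71.6%. Levels are given as CPM, each library's counts scaled to a common size after trimmed-mean normalization of all 15 libraries. Log2 fold changes come from limma-voom fits across all genes with Benjamini-Hochberg adjustment, and a gene was called at an adjusted p under 0.05. Cldn10 had 0 counts in each of the 3 proximal KO libraries, against 541 to 1514 counts in proximal WT. In distal tubule it had 0 to 24 counts in KO and 3 to 22 in WT, too few to check the genotype there. The summed level of 9 distal convoluted tubule markers was 3666 to 4140 CPM in distal KO, 3140 to 4274 CPM in distal WT, 23.9 to 35.6 CPM in proximal KO and 27.1 to 32.6 CPM in proximal WT. The 9 proximal tubule markers summed to at most 14.6 CPM in distal KO and 14.9 CPM in distal WT, against 3867 to 4152 CPM in proximal KO and 3425 to 4221 CPM in proximal WT, so both segments went with their labels.

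The distal pools also held reads of markers of neighbouring cell types. The 15 intercalated cell markers summed to 394 to 539 CPM in distal KO and 486 to 557 CPM in distal WT, and 14 or 15 of them had reads in each distal library. In proximal tubule the same markers summed to 27.2 to 57.1 CPM in KO and 40.6 to 61.5 CPM in WT. Nearly all of that was Tfcp2l1, a transcription factor that the proximal libraries held at 26.7 to 60.8 CPM. Without it the other 14 markers summed to 0.28 to 0.73 CPM in proximal KO and 0.19 to 0.72 CPM in proximal WT. Foxi1, the transcription factor that defines intercalated cells, had 10.1 to 21.4 CPM in distal KO and 14.03 to 25.3 CPM in distal WT, against at most 0.02 CPM in proximal KO and 0.09 CPM in proximal WT. Markers of principal and connecting tubule cells summed to 257 to 342 CPM in distal KO and 256 to 339 CPM in distal WT. Most of that sum was Kcnj1, a potassium channel that other distal nephron cells also make, at 194 ± 4.56 CPM in distal KO and 180 ± 24.5 CPM in distal WT (SD, n = 4 each). Aqp2, the water channel of principal cells, averaged 1.89 CPM in distal KO and 4.27 CPM in distal WT. Markers of the thick ascending limb summed to 669 to 998 CPM in distal KO and 624 to 1087 CPM in distal WT, of which Egf, also made by distal convoluted tubule cells, averaged 521 CPM in distal KO and 537 CPM in distal WT. The part of these cells in the distal levels below was not tested. In such pools, fewer cells of a type and less RNA per cell cannot be told apart.

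The kidney-type subunits were read in the distal libraries, and 4 of the 5 had next to no reads in proximal tubule. Atp6v1b1, Atp6v0d2, Atp6v1g3 and Atp6v1c2 averaged 4.11 to 47.7 CPM in distal KO and 4.01 to 59.6 CPM in distal WT. All 3 proximal KO libraries had 0 counts of each of the 4. In proximal WT, Atp6v0d2 and Atp6v1c2 had 0 counts in all 4 libraries, Atp6v1b1 had 3 counts in all and Atp6v1g3 had 12. The exception was Atp6v0a4, which had at least 44.7 CPM in every library of both segments. These 4 passed the filter on low counts only through the distal libraries, so their limma calls (higher in distal tubule in both genotypes) were fixed by the filter and are not read as a result. Of the 6 members with reads in both segments, Atp6v0a4 was called higher and the 5 widespread members lower in each genotype, where 20.2% (KO) and 25.1% (WT) of all genes tested were called higher and 40.6% (KO) and 48.7% (WT) in either direction. All 6 had an unadjusted p under 0.05, as did 47.7% of genes in KO and 54.2% in WT.

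The 250 bases upstream of the RefSeq start sites of 3 kidney-type members and 1 widespread member are shown to place these genes in their sequence. They come from the set of RefSeq promoters on GRCm38.p6 used here, which held 6 of the 10 members, and run 5′ to 3′ on the gene's strand with CpG dinucleotides in capitals. The windows are chr6:83742767-83743016 (+ strand) for Atp6v1b1, chr6:38124587-38124836 (- strand) for Atp6v0a4, chr1:138273488-138273737 (+ strand) for Atp6v1g3 and chr8:105566065-105566314 (- strand) for Atp6v0d1.
Atp6v1b1: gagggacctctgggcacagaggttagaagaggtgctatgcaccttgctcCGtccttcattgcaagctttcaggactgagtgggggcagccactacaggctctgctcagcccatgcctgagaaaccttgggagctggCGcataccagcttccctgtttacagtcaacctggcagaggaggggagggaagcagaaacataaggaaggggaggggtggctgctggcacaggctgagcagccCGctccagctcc
Atp6v0a4: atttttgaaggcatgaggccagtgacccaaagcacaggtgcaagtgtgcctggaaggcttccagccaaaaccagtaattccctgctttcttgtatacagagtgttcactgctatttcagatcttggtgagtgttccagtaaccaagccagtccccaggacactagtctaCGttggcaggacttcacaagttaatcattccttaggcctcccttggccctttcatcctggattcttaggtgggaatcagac
Atp6v1g3: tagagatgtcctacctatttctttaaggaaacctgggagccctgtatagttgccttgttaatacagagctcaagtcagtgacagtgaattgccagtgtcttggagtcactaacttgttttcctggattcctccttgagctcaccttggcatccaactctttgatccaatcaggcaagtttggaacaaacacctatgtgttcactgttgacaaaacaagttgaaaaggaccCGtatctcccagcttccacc
Atp6v0d1: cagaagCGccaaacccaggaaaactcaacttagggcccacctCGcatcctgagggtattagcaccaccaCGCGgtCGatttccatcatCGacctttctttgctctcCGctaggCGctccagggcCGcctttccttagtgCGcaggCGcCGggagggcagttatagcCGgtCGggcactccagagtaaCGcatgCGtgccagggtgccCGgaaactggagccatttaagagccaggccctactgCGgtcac
The upstream windows of Atp6v1b1, Atp6v0a4 and Atp6v1g3 held 3, 1 and 1 CpG, against 18 in that of Atp6v0d1. Over the 32851 RefSeq promoters the median was 6 and the quartiles were 2 and 16. Over the 6 windows the pattern did not split by type, since kidney-type Atp6v1c2 had 15 CpG and widespread Atp6v0a1 had 4. Both of these windows lie inside the gene as annotated, upstream of an internal start. That of Atp6v1c2 (- strand) ends at 17324980, where the gene ends at 17329359. That of Atp6v0a1 (+ strand) begins at 101010148, where the gene begins at 101009452. Whether windows at their outermost starts would split by type is not known here. The forkhead core TGTTTAC, searched on both strands, occurred once among the 6 members, with its first base 98 bases before the Atp6v1b1 start, and in 3.17% of all promoters. The E-box CACGTG, a palindrome, was in none of the 6 windows and in 6.02% of all promoters. These matches describe letters in a window and say nothing of binding.

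Atp6v1b1 (ENSMUSG00000006269; GRCm38 chromosome 6, 83742990 to 83758855), the kidney-type B subunit, had 14.7, 12.9, 15.1 and 14.8 CPM in distal KO libraries 5 to 8. Distal WT libraries 1 to 4 had 15.6, 17.7, 18.1 and 16.8 CPM. The distal groups did not overlap, all 4 WT libraries being above all 4 KO libraries. Proximal KO had 0 counts, so distal KO was at least 192-fold higher than proximal KO with a floor of 3 counts per library. In WT the ratio of distal to proximal was 1105, with a 95% counting interval of 378 to 5360 because it rests on 3 proximal reads.

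Atp6v0d2 (ENSMUSG00000028238; chromosome 4, 19876841 to 19922605), the kidney-type d subunit that osteoclasts also make, had 31.0, 52.2, 46.0 and 45.3 CPM in distal KO and 48.8, 41.8, 54.7 and 35.9 CPM in distal WT. The distal groups overlapped, and the lowest value was that of KO library 5. With 0 counts in every proximal library, distal tubule was at least 583-fold higher than proximal tubule in KO and at least 727-fold higher in WT. The 12 macrophage and osteoclast markers summed to no more than 2.17 CPM in distal KO and 2.08 CPM in distal WT.

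Atp6v1g3 (ENSMUSG00000026394; chromosome 1, 138273738 to 138289462), the kidney-type G subunit, had 30.3, 59.96, 50.4 and 49.99 CPM in distal KO and 65.0, 55.4, 72.3 and 45.6 CPM in distal WT. KO library 5 was again the lowest of the 8, and the groups overlapped. Distal tubule was at least 637-fold higher than proximal tubule in KO. In WT the ratio was 941, with a counting interval of 539 to 1822, on 2, 1, 3 and 6 proximal reads in libraries 1, 2, 3 and 6.

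Atp6v1c2 (ENSMUSG00000020566; chromosome 12, 17284721 to 17329359), the kidney-type C subunit, was the faintest of the kidney-type members. It had 2.84, 5.23, 3.86 and 4.50 CPM in distal KO and 4.03, 3.66, 4.67 and 3.68 CPM in distal WT. The range in KO enclosed that in WT. No proximal library had a read, which put distal tubule at least 54.9-fold above proximal tubule in KO and at least 64.4-fold above it in WT. Its exons overlap those of Pdia6 on the opposite strand over 50 bases, and whether reads were counted by strand is not given in the sources used here.

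Atp6v0a4 (ENSMUSG00000038600; chromosome 6, 38048483 to 38124586), the kidney-type a subunit, is known from proximal tubule as well as from intercalated cells. It had 71.2, 82.3, 88.7 and 81.2 CPM in distal KO, against 55.1, 44.7 and 51.6 CPM in proximal KO libraries 4, 5 and 7. In WT it had 85.6, 100.4, 90.1 and 86.4 CPM in distal tubule, against 65.1, 57.8, 56.3 and 56.9 CPM in proximal tubule. Every distal library was above every proximal one. The log2 fold change, distal over proximal, was 0.67 ± 0.15 in KO (SE; limma adjusted p = 0.00278) and 0.63 ± 0.10 in WT (adjusted p = 3.73e-05). Its exons share 259 bases on the same strand with D630045J12Rik and 62 bases on the opposite strand with Tmem213, and how reads in those stretches were assigned is not known here.

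**Figure D1:**
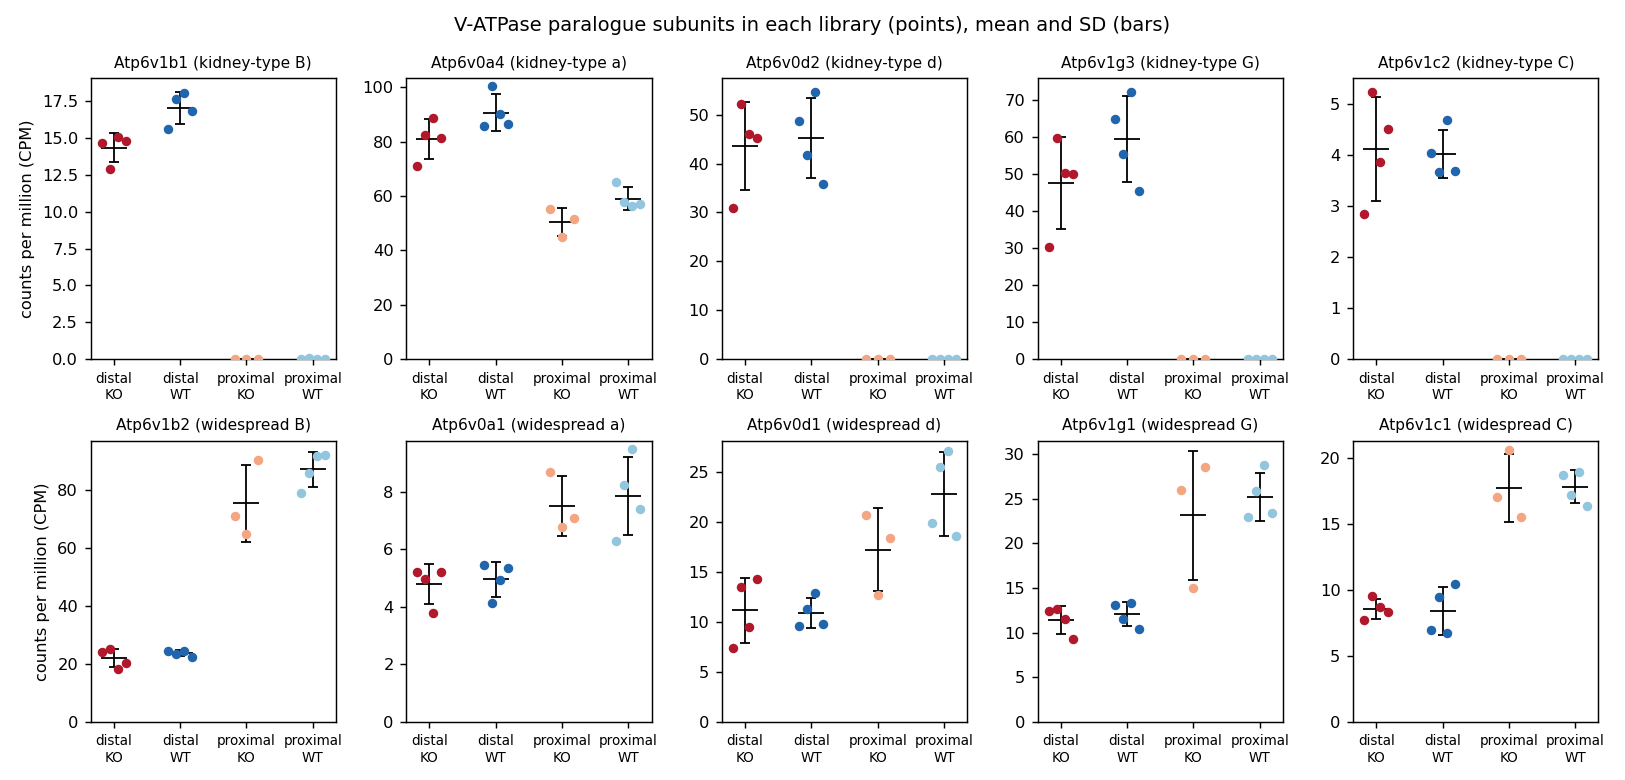
CPM of the 10 V-ATPase paralogue subunits in each library (points) with the mean and SD (bars), for distal KO, distal WT, proximal KO and proximal WT from left to right, kidney-type members in the upper row and their widespread paralogues below. Each panel has its own scale from 0; 4 of the 5 kidney-type members lie at 0 in proximal tubule, and the means of the widespread members are higher there than in distal tubule.

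The widespread paralogues ran the other way. All 5 were called lower in distal than in proximal tubule in KO and in WT, where 20.4% (KO) and 23.6% (WT) of all genes tested were called lower. Their median log2 fold change was −0.99 in KO and −1.06 in WT, against 0.04 and 0.02 over all genes tested. In WT the distal and proximal values of all 5 did not overlap, and in KO those of 4 did not, where the groups of 43.9% (KO) and 45% (WT) of all genes tested did not overlap.

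Atp6v1b2 (ENSMUSG00000006273; chromosome 8, 69088646 to 69113711), the widespread B subunit, had the largest segment difference of the 5 widespread members. It had 24.1, 25.1, 18.2 and 20.4 CPM in distal KO, against 70.8, 64.9 and 90.3 CPM in proximal KO. In WT it had 24.3, 23.3, 24.5 and 22.2 CPM in distal tubule, against 79.0, 85.7, 91.5 and 91.8 CPM in proximal tubule. The log2 fold change, distal over proximal, was −1.79 ± 0.18 in KO (SE; limma adjusted p = 1.81e-06) and −1.87 ± 0.10 in WT (adjusted p = 4.36e-10).

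Atp6v0d1 (ENSMUSG00000013160; chromosome 8, 105524465 to 105566047), the widespread d subunit, had 7.43, 13.5, 9.53 and 14.3 CPM in distal KO, against 20.7, 12.7 and 18.4 CPM in proximal KO. These groups overlapped, proximal library 5 lying below distal libraries 6 and 8. Its fall in KO tubules only just passed the threshold, at a log2 fold change of −0.65 ± 0.25 (SE; limma adjusted p = 0.0492). The call was lost without proximal KO library 4 or 7 or distal KO library 5 or 7 (adjusted p = 0.181, 0.141, 0.154 and 0.115). With scaling by nuclear protein-coding reads the log2 fold change was −0.26 (adjusted p = 0.403). In WT it had 9.62, 11.3, 12.9 and 9.81 CPM in distal tubule, against 19.9, 25.5, 27.1 and 18.6 CPM in proximal tubule, a log2 fold change of −1.04 ± 0.15 (adjusted p = 2.64e-05).

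Atp6v1g1 (ENSMUSG00000039105; chromosome 4, 63544772 to 63550750), the widespread G subunit, averaged 11.5 ± 1.57 CPM in distal KO and 23.2 ± 7.23 CPM in proximal KO (SD, n = 4 and 3). In WT it averaged 12.1 ± 1.39 CPM in distal tubule and 25.2 ± 2.69 CPM in proximal tubule (SD, n = 4 each). Its log2 fold change was −0.99 ± 0.23 in KO (limma adjusted p = 0.00325) and −1.06 ± 0.13 in WT (adjusted p = 3.33e-06). The processed pseudogene Gm13453 matches it at 99.4% over 357 bases and held 976 counts against 11392 of Atp6v1g1, so some of its reads may have been counted there.

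Atp6v1c1 (ENSMUSG00000022295; chromosome 15, 38661933 to 38692446), the widespread C subunit, averaged 8.57 ± 0.76 CPM in distal KO and 17.7 ± 2.59 CPM in proximal KO (SD, n = 4 and 3). In WT it averaged 8.39 ± 1.83 CPM in distal tubule and 17.8 ± 1.236 CPM in proximal tubule. Its log2 fold change was −1.05 ± 0.18 in KO (limma adjusted p = 3.00e-04) and −1.08 ± 0.15 in WT (adjusted p = 1.59e-05).

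Atp6v0a1 (ENSMUSG00000019302; chromosome 11, 101009452 to 101063719), the widespread a subunit, was the faintest of these 5. It averaged 4.80 ± 0.69 CPM in distal KO and 7.51 ± 1.04 CPM in proximal KO (SD, n = 4 and 3), and 4.96 ± 0.60 CPM in distal WT and 7.85 ± 1.35 CPM in proximal WT. Its log2 fold change was −0.65 ± 0.21 in KO (limma adjusted p = 0.0234) and −0.66 ± 0.17 in WT (adjusted p = 0.00461). The KO call was lost without proximal KO library 4 or distal KO library 7 (adjusted p = 0.0884 and 0.0621). Scaling by nuclear protein-coding reads, which moved the median log2 fold change of all genes to 0.43 in KO and 0.29 in WT, took its call in both genotypes (adjusted p = 0.327 in KO and 0.0612 in WT).

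Set within their pairs, the kidney-type members made up a large part of each pair in distal tubule and, for 4 pairs, nearly none in proximal tubule. The share was taken from CPM per kb of merged exon, so that 2 genes of unequal length can be compared. Atp6v1b1 made up 44.4 ± 5.12% of the B pair in distal KO and 46.7 ± 1.94% in distal WT (SD, n = 4 each), against 0% in each proximal KO library and at most 0.0585% in proximal WT. Atp6v0d2 made up 72.3 ± 3.51% of the d pair in distal KO and 73.1 ± 2.94% in distal WT, against 0% in all 7 proximal libraries. Atp6v1g3 made up 70.6 ± 7.63% of the G pair in distal KO and 74.6 ± 1.63% in distal WT, against 0% in proximal KO and at most 0.350% in proximal WT. Atp6v1c2 made up 54.7 ± 4.72% of the C pair in distal KO and 55.4 ± 7.87% in distal WT, against 0% in all 7 proximal libraries.

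The a pair stood apart, with the kidney-type member the larger in both segments. Atp6v0a4 made up 95.6 ± 0.90% of the a pair in distal KO (SD, n = 4) and 89.9 ± 0.65% in proximal KO (SD, n = 3). In WT it made up 96.0 ± 0.72% in distal tubule and 90.8 ± 1.87% in proximal tubule (SD, n = 4 each). On the log2 scale of its ratio to Atp6v0a1 (0.5 added to each count, per exon length), distal exceeded proximal by 1.33 in KO and 1.27 in WT. These shares leave out other a subunit genes. Atp6v0a2 averaged 1.10 CPM per kb in distal KO and 1.27 in proximal KO, against 0.73 and 1.15 for Atp6v0a1. In WT, Atp6v0a2 averaged 1.04 CPM per kb in distal and 1.06 in proximal tubule, against 0.76 and 1.20 for Atp6v0a1. The ratios of all 5 pairs were fully apart between segments in both genotypes, each with an exact two-sided permutation p of 0.0286, the smallest that these group sizes allow. Adjusted over the 20 ratio tests computed, that is 0.0571, so none passed 0.05. The 20 include the proximal KO against WT tests of the B, d, G and C pairs, which are not used. The adjusted value thus depends on which tests are counted. For the B, d, G and C pairs the separation restates the near absence of proximal reads of the kidney-type member and is not read as a result.

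**Figure D2:**
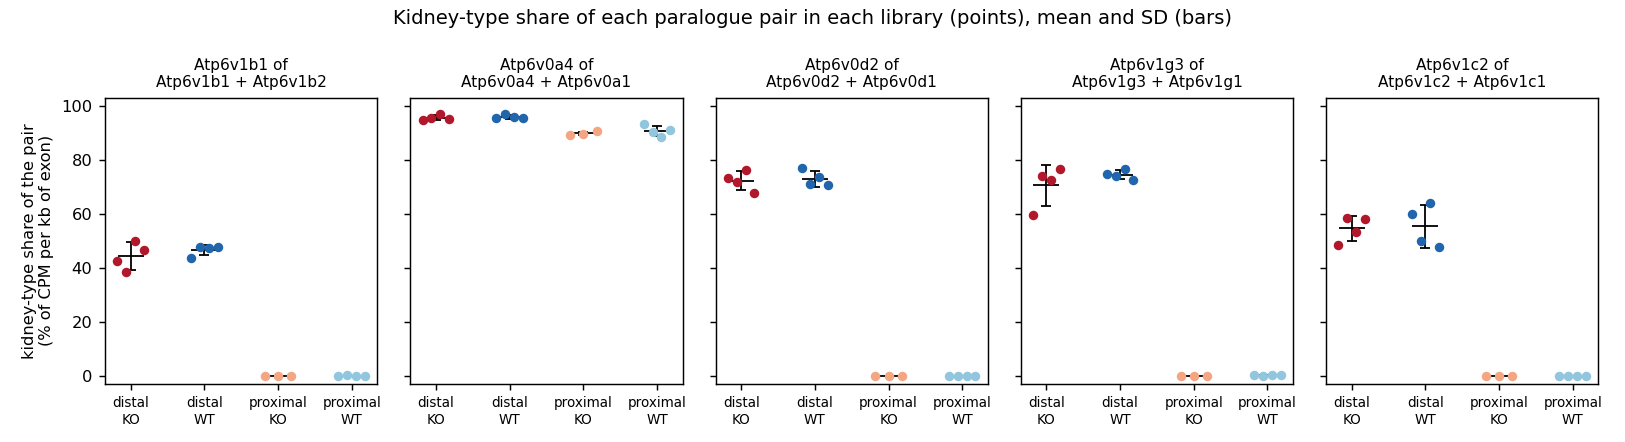
Share of each pair's summed CPM per kb of exon that came from the kidney-type member, in percent, in each library (points) with the mean and SD (bars); the groups run distal KO, distal WT, proximal KO, proximal WT in each panel. Atp6v0a4 holds 88.7 to 97.0% of its pair in every library, and the other 4 kidney-type members lie at or near 0% in proximal tubule.

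The sum of both genes of a pair did not move the same way for all subunits. The B pair summed to 7.41 ± 0.46 CPM per kb in distal KO and 14.2 ± 2.51 CPM per kb in proximal KO, and to 8.33 ± 0.32 CPM per kb in distal WT and 16.4 ± 1.14 CPM per kb in proximal WT. It was the only pair of the 5 whose sum lay lower in distal tubule without overlap. The d pair summed to 22.3 ± 4.85 CPM per kb in distal KO and 9.61 ± 2.31 CPM per kb in proximal KO, and to 22.8 ± 3.60 CPM per kb in distal WT and 12.7 ± 2.33 CPM per kb in proximal WT. The sums of the a and G pairs were likewise higher in distal tubule without overlap in both genotypes. Those of the C pair overlapped, at 3.42 ± 0.59 CPM per kb in distal KO and 3.17 ± 0.46 CPM per kb in proximal KO, and at 3.34 ± 0.19 CPM per kb in distal WT and 3.19 ± 0.22 CPM per kb in proximal WT. These sums are descriptions with no test.

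Ordered by CPM per kb of merged exon, Atp6v1g3 led the distal libraries, at 25.3 ± 6.61 CPM per kb in KO and 31.6 ± 6.15 CPM per kb in WT. Atp6v0a4 followed at 16.3 ± 1.46 and Atp6v0d2 at 16.1 ± 3.30 CPM per kb in distal KO, and at 18.2 ± 1.37 and 16.7 ± 3.01 CPM per kb in distal WT. Atp6v0a4 and Atp6v0d2 overlapped in both genotypes, and Atp6v1g3 overlapped Atp6v0a4 in KO, where its lowest library, KO 5, fell among the values of Atp6v0a4, but not in WT. Then came Atp6v1g1, Atp6v0d1, Atp6v1b2 and Atp6v1b1, and the lowest were Atp6v1c2, Atp6v1c1 and Atp6v0a1, the last at 0.73 ± 0.11 CPM per kb in KO and 0.76 ± 0.09 CPM per kb in WT. Atp6v1c2 and Atp6v1c1 were not apart in either genotype, nor were Atp6v1b2 and Atp6v1b1, or Atp6v0d1 and Atp6v1b2, in KO.

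In proximal tubule the order began with Atp6v1g1, at 20.4 ± 6.37 CPM per kb in KO and 22.2 ± 2.37 CPM per kb in WT, followed by Atp6v1b2 at 14.2 ± 2.51 and 16.4 ± 1.14 CPM per kb. Those 2 genes overlapped in KO. Atp6v0a4 and Atp6v0d1 came next and overlapped each other in both genotypes, and Atp6v0d1 also overlapped Atp6v1b2 in WT, and then Atp6v1c1 and Atp6v0a1. Using the length of the longest transcript in place of merged exons put Atp6v1b2 above Atp6v1g1 in proximal tubule. It also put Atp6v1b1 at 7.17 CPM per kb beside 7.77 for Atp6v1b2 in distal KO, and at 8.53 beside 8.34 in distal WT, so the order within the B pair depends on the length used.

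The other V-ATPase genes lie outside the 5 pairs, and several were also higher in distal tubule. Among them, Atp6v1g2 is a further G subunit gene, and Atp6v0a2 and Tcirg1 are further a subunit genes. Of 7 other V1 genes 6 were tested, and 4 were called higher and none lower in distal tubule in KO, with 5 higher and none lower in WT, where 20.2% (KO) and 25.1% (WT) of all genes tested were called higher. Their median log2 fold change was 0.62 in KO and 0.81 in WT. Atp6v1a, the catalytic subunit and the most abundant of all, had 264 to 379 CPM in distal KO, against 161 to 240 CPM in proximal KO. In WT it had 329 to 434 CPM in distal tubule, against 179 to 191 CPM in proximal tubule. Its log2 fold change was 0.70 ± 0.17 in KO (SE; limma adjusted p = 0.00471) and 0.99 ± 0.10 in WT (adjusted p = 3.16e-07). Atp6v1f and the V1 regulator Atp6v1h rose by 1.38 and 1.17 log2 units in KO and by 1.61 and 1.33 in WT. Atp6v1e1, a stalk subunit, rose by 0.54 in KO and 0.59 in WT. Atp6v1d, part of the rotor, was called higher in WT alone, at 0.37 (adjusted p = 0.0126), with 0.32 in KO (adjusted p = 0.188), and the interaction was −0.03 (adjusted p = 0.994).

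Among 8 other V0 genes, 2 were called higher and 2 lower in distal tubule in KO, and 2 higher and 1 lower in WT. These shares are near those of all genes tested, of which 40.6% were called in KO and 48.7% in WT. Atp6v0e rose by 1.83 log2 units in KO and 1.76 in WT, while its paralogue Atp6v0e2 fell by 5.82 in KO and fell by 5.95 in WT. Atp6v0e2 averaged 0.12 ± 0.15 CPM in distal KO and 3.89 ± 1.59 CPM in proximal KO, and 0.08 ± 0.03 CPM in distal WT and 5.75 ± 1.76 CPM in proximal WT. Atp6ap1, an accessory subunit, rose by 1.11 in KO and 1.16 in WT. Tcirg1, the a3 subunit of osteoclasts, was called lower in KO alone, with a log2 fold change of −1.79 (adjusted p = 0.00915) and of −0.81 in WT (adjusted p = 0.135), a difference between genotypes that did not pass (limma interaction −0.96, adjusted p = 0.971), on averages of 1.03 CPM or less. Atp6ap2, the prorenin receptor, had log2 fold changes of 0.52 in KO and 0.38 in WT (adjusted p = 0.0806 and 0.0718).

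Of 12 assembly and regulation genes 9 were tested. In KO 1 was called higher and 3 lower in distal tubule, and in WT 1 higher and 4 lower, again near the 40.6% (KO) and 48.7% (WT) of all genes called in either direction. Ncoa7, a TLDc-domain protein that binds the V-ATPase, fell by 1.98 log2 units in KO and fell by 2.19 in WT. Dmxl2 and Wdr7, partners in the complex that reassembles the pump, had log2 fold changes of −1.83 and −0.94 in KO and of −1.92 and −0.96 in WT, all called. Dmxl1 fell by 0.31 in WT (adjusted p = 0.0355) and had −0.14 in KO (adjusted p = 0.693). Oxr1, another TLDc-domain gene, rose by 0.84 in KO and 0.56 in WT. The 12 lysosome genes, a comparison list for acid organelles, had a median log2 fold change of −0.46 in KO (2 called higher, 6 lower) and −0.36 in WT (3 higher, 6 lower).

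**Figure D3:**
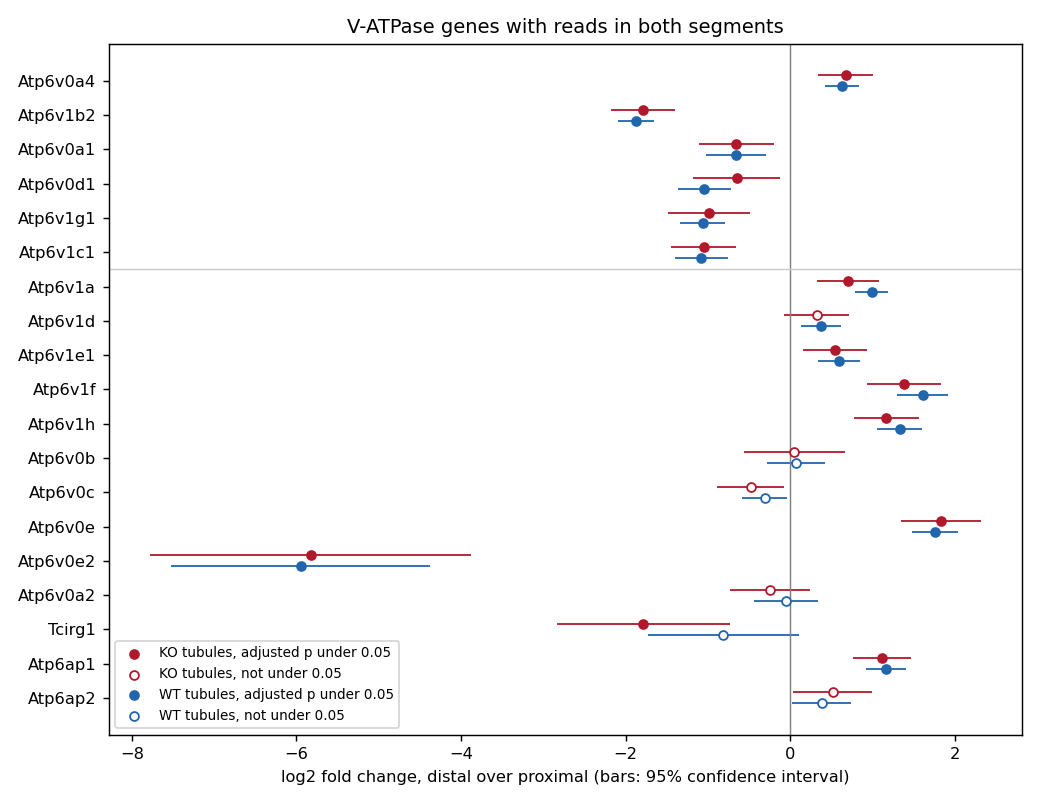
Log2 fold change, distal over proximal tubule, with its 95% confidence interval, in KO (red) and WT (blue) tubules for 6 members (above the grey line) and 13 other V-ATPase genes with reads in both segments; filled points passed an adjusted p of 0.05. Atp6v0a4 lies right of 0 and the 5 widespread members left of it, while Atp6v0e2 lies farthest left.

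Loss of Cldn10a left no member past the threshold in distal tubule. Of the 10 members tested 0 were called in distal KO against distal WT, as were 0 of all 12968 genes tested (0%). At an unadjusted p under 0.05 there were 0 of 10 members, where 7.13% of all genes passed. The log2 fold changes, KO over WT, ran from −0.34 to 0.03, and 8 of 10 were below 0. The median over the kidney-type members was −0.17 and over the widespread members −0.04, against −0.01 over all genes tested. Atp6v1b1 averaged 14.3 ± 0.99 CPM in KO and 17.0 ± 1.09 CPM in WT (SD, n = 4 each), a log2 fold change of −0.25 with a 95% interval of −0.53 to 0.03 (limma adjusted p = 0.698). It was the only member whose distal groups did not overlap, as was so for 3.82% of all genes. Atp6v1g3 had −0.34 with an interval of −0.71 to 0.03 (adjusted p = 0.687), and −0.14 without KO library 5.

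No ratio within a pair separated the distal genotypes. The log2 ratio of kidney-type to widespread member was lower in KO by 0.14 for the B pair, 0.12 for the a pair, 0.06 for the d pair, 0.26 for the G pair and 0.05 for the C pair. The difference was −0.016 for the G pair without KO library 5 and −0.017 for the B pair without KO library 6. All 5 differences were within the spread between replicates, with exact two-sided permutation p from 0.371 to 0.8 (adjusted over the 20 ratio tests, 0.531 to 0.8). In the authors' deposited table for distal tubule, Atp6v1b1 had a log2 fold change of −0.25 with an adjusted p of 0.591, and Atp6v1g3 had −0.32 with 0.635. Of the other V-ATPase genes in distal tubule, 0 of 22 tested were called, and Atp6v0c, the main proteolipid of the V0 ring, had the smallest unadjusted p, at 0.0122 (log2 fold change −0.41, adjusted p = 0.67).

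In proximal tubule 6 members passed the filter on low counts, Atp6v0a4 and the 5 widespread members, and the other 4 were at or near 0 reads in both genotypes. Of those 6, 0 were called in proximal KO against proximal WT, where 22 of 13229 genes (0.166%) were called, 0.0983% higher and 0.068% lower, and 0 had an unadjusted p under 0.05 (7.38% of genes). All 6 log2 fold changes were below 0, from −0.43 to −0.03. Atp6v0a4 averaged 50.5 ± 5.25 CPM in KO (SD, n = 3) and 59.0 ± 4.07 CPM in WT (SD, n = 4), a log2 fold change of −0.24 with an interval of −0.56 to 0.08 (limma adjusted p = 0.767). Its groups did not overlap, as was so for 7.97% of all genes. Atp6v0d1 had the largest difference, −0.43 with an interval of −0.87 to 0.02 (adjusted p = 0.691), and its groups overlapped. The log2 ratio of Atp6v0a4 to Atp6v0a1 was lower in KO by 0.17 (exact two-sided permutation p = 0.571). In the authors' deposited table for proximal tubule, Atp6v0a4 had −0.24 with an adjusted p of 0.928, and Atp6v0d1 had −0.41 with 0.765.

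The genotype differences were also compared between the segments. In the limma test of the interaction 0 of 15279 genes were called, with 849 (5.56%) at an unadjusted p under 0.05, and 0 of the 10 members at either threshold. Atp6v1b1, Atp6v0d2, Atp6v1g3 and Atp6v1c2 were at or near 0 reads in proximal tubule, so the interaction cannot be read for them. Over the 6 members with reads in both segments, the interaction (distal minus proximal log2 fold change, KO over WT) was 0.02 to 0.41. Their proximal folds were all below 0, and the distal ones were less negative or, for Atp6v1c1, above 0. Atp6v0d1, for example, had −0.006 in distal and −0.43 in proximal tubule. The largest interaction was that of Atp6v0d1, with an interval of −0.20 to 1.03 (limma adjusted p = 0.971).

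**Figure D4:**
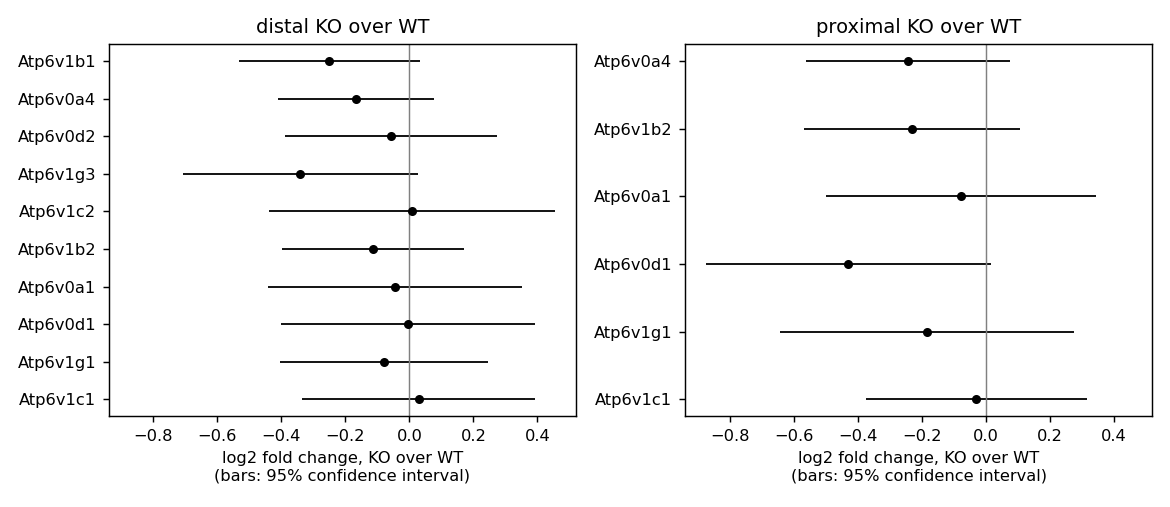
Log2 fold change, KO over WT, with its 95% confidence interval (limma), for the 10 members in distal tubule (left) and the 6 members with enough reads in proximal tubule (right). Every interval includes 0; the point estimates run from −0.34 to 0.03 in distal and from −0.43 to −0.03 in proximal tubule.

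The distal libraries differed among themselves in how much kidney-type RNA and how much intercalated cell RNA they held. The 5 kidney-type members summed to 149.9, 212.6, 204.1 and 195.7 CPM in KO libraries 5 to 8 and to 219.0, 218.9, 239.9 and 188.4 CPM in WT libraries 1 to 4. The 15 intercalated cell markers summed to 394, 527, 413 and 539 CPM in KO libraries 5 to 8 and to 486, 530, 557 and 508 CPM in WT libraries 1 to 4. KO library 5 was the lowest of the 8 for both sums and WT library 3 the highest. Over the 8 libraries, which share their scaling, Pearson's r of the 2 sums was 0.69 and Spearman's rho 0.52. Without the 2 libraries farthest from the median of the marker sum r was 0.35, so the relation rests on those libraries. With Tfcp2l1 left out, a choice made after the data were seen, r was 0.93 and rho 0.74, and r fell to 0.49 without its 2 farthest libraries.

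**Figure D5:**
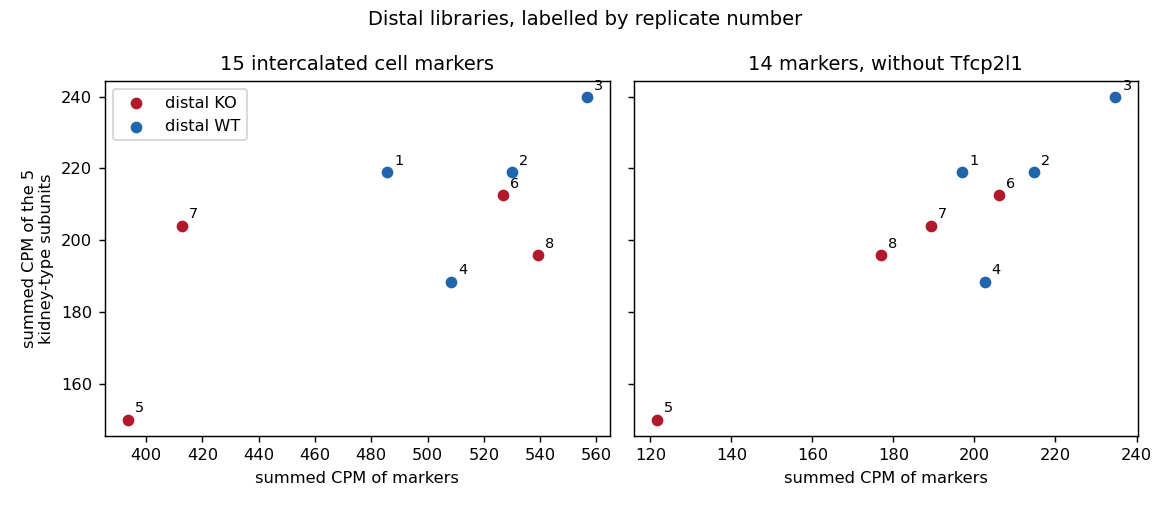
Summed CPM of the 5 kidney-type subunits (vertical) against summed CPM of intercalated cell markers (horizontal) in the 8 distal libraries, KO in red and WT in blue, labelled by replicate number, with all 15 markers (left) and without Tfcp2l1 (right). KO library 5 lies lowest on both axes, at 149.9 CPM of kidney-type subunits, and WT library 3 highest, at 239.9 CPM.

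No intercalated cell marker was called in distal KO against distal WT. The sums of all 15 markers, of the type B markers and of those of both types overlapped between the genotypes. The 3 type A markers summed to 18.6 to 26.9 CPM in distal KO and 27.9 to 38.1 CPM in distal WT, without overlap. No test of these sums was run. Of 14 markers tested 13 had a log2 fold change below 0. The medians were −0.56 for the 3 type A markers, −0.41 for the 3 type B markers and −0.29 for the 8 tested of both types. At an unadjusted p under 0.05 were 3 of 3 type A, 2 of 3 type B and 2 of 8 shared markers, where 7.13% of all genes passed. Slc4a1, the basolateral anion exchanger of acid-secreting type A cells, had −0.36, and Slc26a4, pendrin of the bicarbonate-secreting type B cells, had −0.41 (limma adjusted p = 0.687 each). Foxi1 had −0.36 (adjusted p = 0.734). The medians were −0.40 for 6 principal and connecting tubule markers and 0.55 for 6 thick ascending limb markers, 3 of each at an unadjusted p under 0.05 and none called. The part of these markers in the small distal differences of Atp6v1b1 and Atp6v1g3 was not tested.

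The kidney-type members did not all vary together over the 8 distal libraries. The pairs of members are described by Pearson's r of log2 CPM, ranked among 6814 genes of at least 2 CPM. Atp6v1g3 and Atp6v0d2 had r = 0.92 with each other, rank 5 in the list of Atp6v1g3 and rank 4 in that of Atp6v0d2. The 4 genes above Atp6v0d2 in the list of Atp6v1g3 were Rer1, Syn2, Vmp1 and Foxi1 (r = 0.94, 0.94, 0.93 and 0.93), and Slc26a4 was at rank 8 (r = 0.92). Atp6v0d2 was led by Rab18, Tmod3 and Pcna-ps2 (r = 0.96, 0.94 and 0.93) and had Aga at rank 5 (r = 0.92). Atp6v1c2, on 108 to 195 reads per library, was led by Ssr3, Rab18, Serpinb9, Ing3 and Nrip1 (r = 0.94 to 0.91), with Atp6v0d2 at rank 12 (r = 0.89).

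Atp6v1b1 and Atp6v0a4 went less with these members over the 8 libraries. Atp6v1b1 had r = −0.02 with Atp6v0d2, 0.27 with Atp6v1g3 and 0.30 with Foxi1, and its 5 most alike genes were Slc39a1, Plekha8, Ephb4, Rab35 and Ttl (r = 0.91 to 0.89). Atp6v0a4 was led by Eef1a1, Tmed8, Insrr (itself among the type B markers), Ctdspl and St6gal1 (r = 0.95 to 0.89), and had r = 0.63 with Atp6v1b1, 0.66 with Atp6v1g3 and 0.78 with Foxi1. Without KO library 5, r of Atp6v0a4 was 0.71 with Atp6v1b1, 0.12 with Atp6v1g3 and 0.46 with Foxi1, while Atp6v1g3 kept 0.84 with Atp6v0d2 and 0.80 with Foxi1. Atp6v1c2 had r = 0.80 with Atp6v1g3 and 0.63 with Foxi1, the latter below that of Atp6v0a4. Without KO library 5, r of Atp6v1c2 was 0.50 with Atp6v1g3, 0.13 with Foxi1 and 0.77 with Atp6v0d2. These likenesses are over 8 libraries that share depth and scaling, and are given without a test.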

How the data were processed

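RNA of 15 libraries was prepared with a micro column kit and Nextera XT, per the labels. CASAVA 1.8, STAR 2.5, DESeq2 1.24.0 and GRCm38 are named per the submitters' processing notes; how reads were counted, with which annotation and strand setting, is not given in the sources used here. The deposited table holds the authors' whole-number counts of reads per gene. Its unit is recorded as other because all-digit column names kept it from being checked as counts, so limma 3.58.1 (R 4.3.3, voom, prior count 0.5) was the main test. The log2 fold changes and p-values in the authors' 2 deposited comparison tables are also recorded as other, and their sign was read from Cldn10 in the proximal table and, in the distal one, where Cldn10 is too low, from the members' own fitted differences. Each fit held only its own groups, trimmed-mean scaling (30% and 5% trimmed), and genes with about 10 scaled counts in a number of libraries equal to its smaller group and 15 counts in total. Symbols and exon lengths came from GENCODE M21. Floors use 3 counts per library and cover counting error only, like the counting intervals. Pair ratios used Python 3.11.15 with exact permutation tests over samples.

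The members and gene lists were chosen with earlier results of these data known. All 10 members were named in every comparison, with each called gene of the subunit and assembly lists, Atp6v1a and Atp6ap2, up to 4 markers of a list, and the 5 genes most alike to a kidney-type member. The fits were tested on simulated data with known changes. Alternatives were other scalings, filters, weights and models, leaving out each library, and the replicate block. Replicates of a group correlated at r = 0.959 to 0.982.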

Additional observations from a re-analysis of the deposited data

Results flagged for a closer look

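Of 39 sets of 4 libraries examined (the members' CPM, the pair ratios and the distal marker sums, each within a group), 1 held a library far from the others, where chance alone flags about 1 in 20. The log2 ratio of Atp6v1b1 to Atp6v1b2 per exon length was −0.36 in distal WT library 1, against −0.16 to −0.12 in the other 3 distal WT libraries. The gap to the nearest of them was 0.839 of the range of the group.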

How the results depend on the processing

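The counts of pairs apart and the segment directions of all 10 members held under the alternatives run, and the counts of members called held in part. For Atp6v1b1, Atp6v0d2, Atp6v1g3 and Atp6v1c2 and their pairs this was fixed by the near absence of proximal reads. These genes are in every count of segment calls below. Under the replicate block, 5 members were called between segments in KO (10 without it): Atp6v1b1, Atp6v0d2, Atp6v1g3, Atp6v1c2 and Atp6v1b2. Of the members with reads in both segments, Atp6v1b2 alone kept its KO call there. Numbers 4 and 6 stand for different genotypes in the segments, so they do not pair samples. For the numbers shared within a genotype, deviations of same-numbered libraries correlated at −0.25 to 0.04. That cannot decide whether they came from the same animal, and only 2 KO numbers are shared. All 10 stayed called in WT with the block. Scaling by nuclear protein-coding reads called 8 in KO and 9 in WT. With 1 library left out, 8 to 10 were called in KO; the count was 8 without proximal KO 4 or distal KO 7, and 9 without proximal KO 7 or distal KO 5. Atp6v0d1 in KO also lost its call with the stricter filter (adjusted p = 0.0565) and with limma-trend (0.0592). Calls among all genes ran from 3238 to 6449 in KO and from 5840 to 7474 in WT between segments, 0 to 4 for distal KO against WT, 2 to 123 for proximal KO against WT, and 0 to 5 for the interaction. Members called between genotypes were 0 under every alternative run.

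Small genotype differences changed sign, none of them called; the cause was not tested. In distal tubule, Atp6v0d1 was 0.035 with nuclear protein-coding scaling and Atp6v1c2 −0.049 with sample quality weights. In proximal tubule, Atp6v1c1 was 0.024 without WT 6 and KO 7, whose numbers lie in another range (chosen after seeing the data). The interaction was −0.018 for Atp6v0a4, −0.0098 for Atp6v0a1 and −0.048 for Atp6v1g1 with quality weights, and −0.034 for Atp6v1b2 with the replicate block.

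With 1 library left out, distal folds ranged from −0.14 to 0.068 for Atp6v0a1, −0.15 to 0.17 for Atp6v0d1, −0.17 to 0.093 for Atp6v0d2, −0.073 to 0.14 for Atp6v1c1, −0.11 to 0.17 for Atp6v1c2 and −0.16 to 0.021 for Atp6v1g1. Proximal folds ranged from −0.20 to 0.0053 for Atp6v0a1, −0.15 to 0.049 for Atp6v1c1 and −0.38 to 0.11 for Atp6v1g1. The interaction ranged from −0.072 to 0.14 for Atp6v0a1, −0.023 to 0.13 for Atp6v0a4, −0.0027 to 0.26 for Atp6v1b2, −0.053 to 0.18 for Atp6v1c1 and −0.20 to 0.29 for Atp6v1g1. The distal log2 ratio difference ranged from −0.27 to 0.021 for the a pair, −0.15 to 0.048 for the d pair, −0.20 to 0.13 for the C pair, −0.40 to −0.016 for the G pair and −0.25 to −0.017 for the B pair. With 1 library fewer, the exact test of the KO segment ratios cannot reach 0.05.

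Pearson's r of the kidney-type sum and the intercalated cell markers was 0.88 as means of log2 CPM, but 0.064 without the 2 farthest libraries, and 0.93 without Tfcp2l1, but 0.49 without its 2 farthest. In the order of levels, 11 of 32 places moved with the length of the longest transcript and none with shares of all subunits. At 3 counts per library, levels under 0.0748 CPM in proximal KO and 0.0623 CPM in proximal WT could not be told from 0.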

Other observations

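Slc12a3, the sodium chloride cotransporter that marks distal convoluted tubule cells, varied against some kidney-type members over the 8 distal libraries. Pearson's r of log2 CPM was −0.88 with Atp6v1g3, −0.84 with Atp6v0d2, −0.72 with Atp6v1c2, −0.51 with Atp6v0a4 and −0.11 with Atp6v1b1, on values that share a scale and so cannot vary freely of each other. Without KO library 5 these were −0.89 for Atp6v1g3, −0.77 for Atp6v0d2, −0.55 for Atp6v1c2, −0.16 for Atp6v0a4 and 0.02 for Atp6v1b1. Slc12a3 had 843, 610, 767 and 710 CPM in KO libraries 5 to 8 and 618, 633, 603 and 825 CPM in WT libraries 1 to 4. Atp6v0d1, a widespread member, had the highest r of the 10 members with the summed intercalated cell markers, 0.84, and r was 0.79 without the 2 libraries farthest from the median of that sum. The sum includes Tfcp2l1. Adjusted over the 10 members, the exact permutation p of Atp6v0d1 was 0.0501 for Pearson's r and 0.0724 for Spearman's rho, so neither passed 0.05.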
